A study of Mus musculus with 8 samples.

Results

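RNA sequencing of whole mouse liver was read for 10 genes of the liver vasculature: the sinusoidal genes Clec4g, Lyve1, Stab1 and Stab2, the pan-endothelial genes Cdh5, Kdr, Pecam1 and Vwf, and the adhesion genes Icam1 and Vcam1. They were chosen by name, and each matched 1 of the 24545 rows of the deposited table. All 10 passed the filter on low values (1 FPKM or more in 2 or more of 8 libraries), which left 11463 features to test. FPKM is a fragment density scaled to transcript length and to mapped fragments, so levels can be set side by side between genes.

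The samples were livers of male C57Bl/6J mice in 4 groups of 2 biological replicates each: ApoE-Cyp7a1 transgenic given LPS, wild type given LPS, transgenic untreated and wild type untreated. The transgene is described as liver specific and carries Cyp7a1, whose enzyme sets the rate of bile acid synthesis from cholesterol. LPS, a bacterial endotoxin that signals through Toll-like receptor 4, was injected daily at 1.5 mg/kg for 7 days, so the livers show a repeated and not a single exposure. The sources used here do not give the animals' age or whether untreated mice received a vehicle.

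Liver sinusoids are lined by a fenestrated endothelium without an organized basement membrane, whose scavenger receptors clear waste molecules from portal blood. The larger portal and central vessels carry a continuous endothelium with von Willebrand factor. Inflamed endothelium displays VCAM-1 and ICAM-1, which bind integrins of leukocytes and slow or arrest them at the vessel wall.

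Summed FPKM ran between 406668 and 469644 in LPS libraries and between 500765 and 580051 in untreated libraries. Cyp7a1 was at 64.7 to 78.5 FPKM in the 4 transgenic libraries and at 19.9 to 49.1 FPKM in the 4 wild-type libraries, which did not overlap. The hepatocyte gene Ttr averaged 2025 to 3416 FPKM over the groups, and all 10 vascular genes were above 0 in every library. Alb was listed at 0 in all 8 libraries and was not read as absent.

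Of the 10 genes, 9 were higher in LPS livers than in untreated livers, in transgenic and in wild-type mice alike, and Clec4g was the exception. The 9 comprised 3 of 4 sinusoidal, 4 of 4 pan-endothelial and 2 of 2 adhesion genes at an adjusted p under 0.05 in limma. None of the 10 fell. Of all features tested, 16% passed as higher and 10.5% as lower with LPS in transgenic mice (26.5% in all). In wild type 16.2% passed as higher and 5.41% as lower (21.6% in all), and 12.9% were higher in both genotypes. The median log2 change of the 10 genes was 1.53 in transgenic and 1.48 in wild-type mice, against -0.04 and -0.05 over all features. For each of the 9, the 4 LPS libraries lay above the 4 untreated libraries, which held for 20.6% of all features. In whole tissue, more endothelial cells, more RNA per endothelial cell and RNA of other cells sharing some of these transcripts cannot be told apart.

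**Figure D1:**
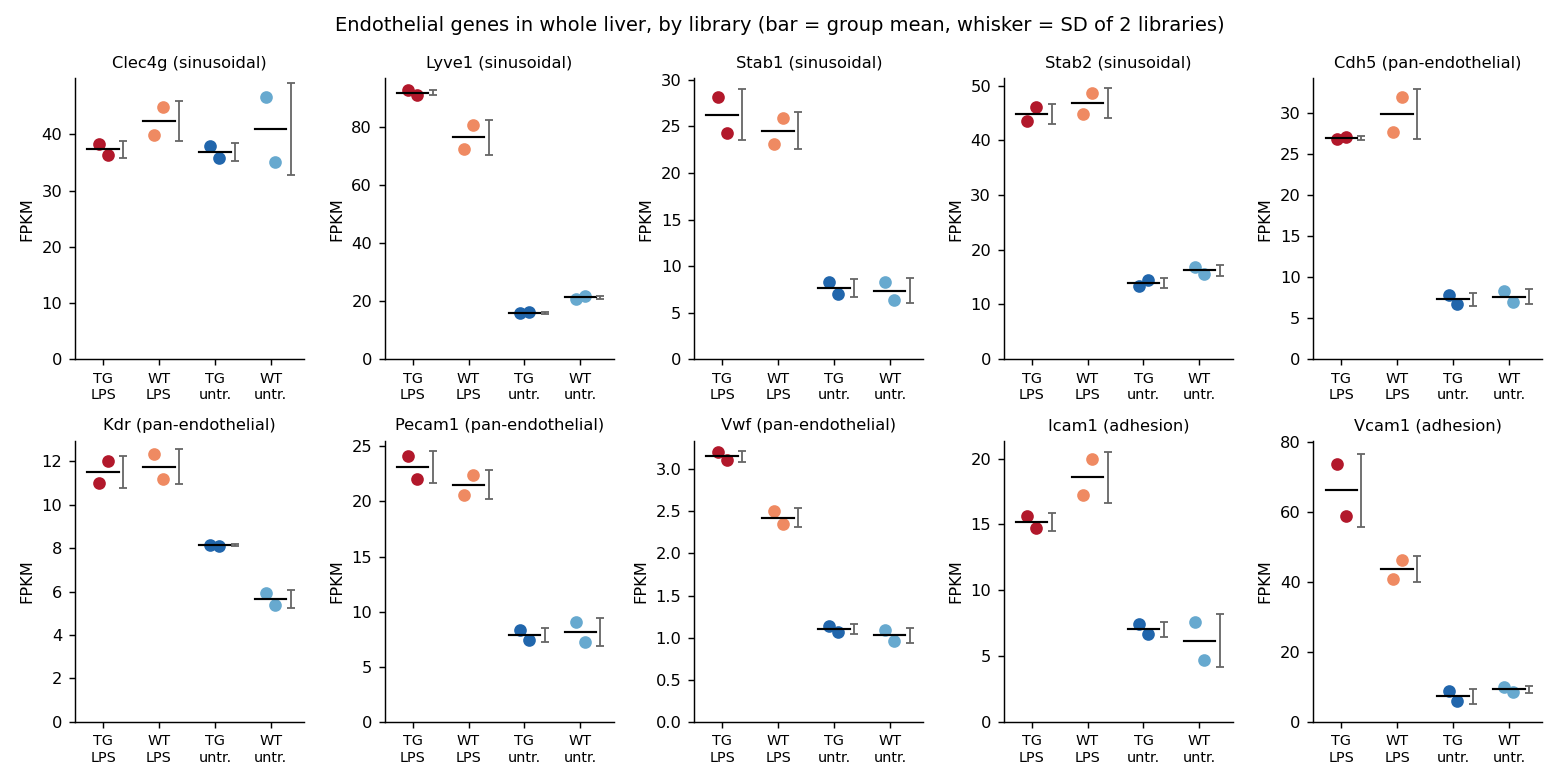
FPKM of the 10 genes (vertical axes from 0) in each library, with transgenic (TG) and wild-type (WT) LPS groups on the left and untreated (untr.) groups on the right of each panel. Points are libraries, black bars are group means and grey whiskers are the SD of 2 libraries; LPS and untreated libraries overlap for Clec4g and are apart for the other 9 genes.

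Lyve1 encodes a hyaluronan receptor of sinusoidal and lymphatic endothelium and lies on chromosome 7 from 110850607 to 110863239. It had 92.5 and 91.1 FPKM in transgenic LPS livers, against 15.7 and 16.0 FPKM in untreated transgenic livers. Wild-type LPS livers had 72.2 and 80.7 FPKM, against 20.7 and 21.7 FPKM in untreated wild type. The replicates of each group lay close together, and Lyve1 was the most abundant of the 10 genes in both LPS groups. Its log2 change was 2.46 in transgenic (SE 0.13, adjusted p = 0.000186) and 1.80 in wild-type mice (SE 0.13, adjusted p = 0.000203).

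Stab1 and Stab2 encode stabilin-1 and stabilin-2, large scavenger receptors of sinusoidal endothelium, of which stabilin-2 takes up hyaluronan. Stab2 (chromosome 10, 86841198 to 87008025) had 43.5 and 46.2 FPKM in transgenic LPS livers, against 13.3 and 14.5 FPKM in untreated transgenic livers. In wild type it had 44.9 and 48.7 FPKM with LPS, against 16.9 and 15.5 FPKM untreated. The LPS libraries of the 2 genotypes overlapped each other. Stab2 rose by 1.62 in transgenic (SE 0.14, adjusted p = 0.000365) and by 1.47 in wild-type mice (SE 0.14, adjusted p = 0.000323). Stab1 (chromosome 14, 31139013 to 31168641), whose product is also made by some macrophages, had 28.2 and 24.3 FPKM in transgenic LPS livers, against 8.33 and 6.95 FPKM in untreated ones. Its values in wild type were 23.1 and 26.0 FPKM with LPS, against 8.32 and 6.38 FPKM untreated. LPS and untreated libraries were far apart, and Stab1 rose by 1.66 in transgenic (SE 0.17, adjusted p = 0.000675) and by 1.62 in wild-type mice (SE 0.17, adjusted p = 0.000553). Stab1 overlaps Nt5dc2, and Clec4g, Stab2, Cdh5, Icam1 and Vcam1 overlap gene models of the other strand in GENCODE vM21. The strand setting used in counting is not given in the sources used here, so reads of such partners cannot be told apart.

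Clec4g encodes LSECtin, a C-type lectin of liver and lymph node sinusoidal endothelium, on chromosome 8 from 3707064 to 3720651. It had 38.4 and 36.3 FPKM in transgenic LPS livers, against 38.0 and 35.7 FPKM in untreated transgenic livers. Wild-type livers had 39.9 and 44.9 FPKM with LPS, against 46.7 and 35.1 FPKM untreated. The groups overlapped in both genotypes. The log2 change was 0.02 in transgenic (95% interval -0.38 to 0.42, adjusted p = 0.951) and 0.06 in wild-type mice (-0.34 to 0.46, adjusted p = 0.821). These intervals lie below those of the other 3 sinusoidal genes, the lowest of which starts at 1.16.

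Cdh5 encodes VE-cadherin, the adhesion protein of endothelial junctions, on chromosome 8 from 104101625 to 104144511. Its level was 26.8 and 27.04 FPKM in transgenic LPS livers, against 7.85 and 6.69 FPKM in untreated transgenic livers. In wild type, LPS livers had 27.7 and 32.0 FPKM, against 8.24 and 6.96 FPKM untreated. Cdh5 rose by 1.76 in transgenic (SE 0.15, adjusted p = 0.000387) and by 1.84 in wild-type mice (SE 0.15, adjusted p = 0.000234). Pecam1 encodes PECAM-1 (CD31), which platelets and many leukocytes also carry, on chromosome 11 from 106654217 to 106750628. It was measured at 24.2 and 22.1 FPKM in transgenic LPS livers, against 8.34 and 7.44 FPKM in untreated ones, and at 20.6 and 22.4 FPKM in wild-type LPS livers, against 9.05 and 7.23 FPKM untreated. The rise of Pecam1 was 1.44 in transgenic (SE 0.15, adjusted p = 0.000704) and 1.31 in wild type (SE 0.15, adjusted p = 0.000816).

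Kdr encodes VEGFR2, the main signalling receptor for VEGF-A on endothelium, on chromosome 5 from 75932827 to 75978458. Transgenic LPS livers had 10.98 and 12.01 FPKM, against 8.16 and 8.12 FPKM in untreated transgenic livers. Wild-type LPS livers had 12.3 and 11.2 FPKM, against 5.94 and 5.37 FPKM untreated. The LPS libraries overlapped between the genotypes, while the untreated ones were higher in transgenic mice. Untreated, 29.5% of all features did not overlap between the genotypes, 15.4% as higher in transgenic mice. Kdr rose by 0.45 in transgenic mice (SE 0.13, adjusted p = 0.0409), the lowest rise of the 9, and by 0.94 in wild type (SE 0.13, adjusted p = 0.00192). The transgenic call did not hold without any 1 of the 4 transgenic libraries or of the 2 wild-type LPS libraries, nor with only the 2 groups compared (adjusted p = 0.0736 to 0.179 in these refits, 0.00888 to 0.179 over all alternatives).

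Vwf encodes von Willebrand factor, which tethers platelets and is stored by endothelium of larger vessels and by platelets, on chromosome 6 from 125546774 to 125686679. It was the least abundant of the 10 genes in every group, at 3.20 and 3.11 FPKM in transgenic LPS livers, against 1.14 and 1.06 FPKM in untreated ones. Wild-type livers had 2.50 and 2.35 FPKM with LPS, against 1.09 and 0.964 FPKM untreated. The log2 change was 0.98 in transgenic (SE 0.12, adjusted p = 0.00128) and 0.76 in wild-type mice (SE 0.12, adjusted p = 0.00364). At this level the added 1 FPKM shrinks the change, and the group means stood at ratios of 2.87 and 2.36. With an added 0.1 FPKM the log2 changes were 1.44 and 1.17, and quantile normalization ended the wild-type call (0.39, adjusted p = 0.0525; 0.0016 to 0.0525 over the alternatives).

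Vcam1 encodes VCAM-1, the ligand of the integrin alpha4 beta1, on chromosome 3 from 116109949 to 116129688. It had 73.6 and 58.7 FPKM in transgenic LPS livers, against 8.85 and 5.79 FPKM in untreated transgenic livers. Wild-type LPS livers had 41.0 and 46.3 FPKM, against 9.98 and 8.58 FPKM untreated. Vcam1 had the largest rise of the 10 genes in both genotypes, and the transgenic LPS libraries lay above the wild-type LPS libraries. Its log2 change was 3.03 in transgenic (SE 0.21, adjusted p = 0.000305) and 2.12 in wild-type mice (SE 0.21, adjusted p = 0.000429). Icam1 encodes ICAM-1, the ligand of the beta2 integrins LFA-1 and Mac-1, on chromosome 9 from 21015985 to 21028817. Transgenic LPS livers had 15.7 and 14.7 FPKM, against 7.41 and 6.64 FPKM in untreated transgenic livers, and wild-type LPS livers had 17.2 and 20.0 FPKM, against 7.57 and 4.73 FPKM untreated. Here the wild-type LPS libraries were the higher ones. Icam1 rose by 1.01 in transgenic (SE 0.20, adjusted p = 0.0104) and by 1.48 in wild type (SE 0.20, adjusted p = 0.00172). The transgenic call ended without untreated transgenic replicate 2 (adjusted p = 0.0737) and without transgenic LPS replicate 1 (adjusted p = 0.0564), in a range of 0.00252 to 0.0737 over all alternatives.

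The upstream sequences of Icam1, which rose, and Clec4g, which did not, are shown because these genes differed in response within the same livers. They are the 250 bases before the annotated start from RefSeq on build GRCm38.p6, given on the gene's own strand. Capitals mark exact matches, on either strand, to GGAAATTCC, a form of the NF-kB binding sequence, and to AGGAAG, a form of the core bound by ETS factors, a family that includes the endothelial factor ERG. Icam1 is at chr9:21015690-21015939 on the plus strand and Clec4g at chr8:3720652-3720901 on the minus strand.
Icam1: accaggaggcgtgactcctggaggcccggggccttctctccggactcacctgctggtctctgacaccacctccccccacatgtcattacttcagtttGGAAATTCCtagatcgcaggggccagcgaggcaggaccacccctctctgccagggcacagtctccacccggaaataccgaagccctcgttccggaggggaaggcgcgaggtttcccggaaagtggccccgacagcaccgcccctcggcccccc
Clec4g: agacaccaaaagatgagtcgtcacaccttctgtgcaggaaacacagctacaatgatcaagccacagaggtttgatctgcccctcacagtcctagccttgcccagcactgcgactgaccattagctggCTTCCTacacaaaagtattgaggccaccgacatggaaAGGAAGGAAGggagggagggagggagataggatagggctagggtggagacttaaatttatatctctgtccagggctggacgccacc
Icam1 held GGAAATTCC, starting 153 bases before the start, and no AGGAAG. Clec4g held 3 matches to AGGAAG, 2 of them overlapping, and no GGAAATTCC. Entries of the promoter table matched 5 of the 10 genes (Clec4g, Icam1, Kdr, Stab1 and Stab2). Among these, GGAAATTCC occurred in Icam1 alone, and AGGAAG also in Stab1 and Stab2, starting 116 and 40 bases before the start. Of 32851 promoter windows of this length, 0.286% held GGAAATTCC and 29.5% held AGGAAG. Both motifs were chosen with these sequences in view, and a match describes letters only.

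**Figure D2:**
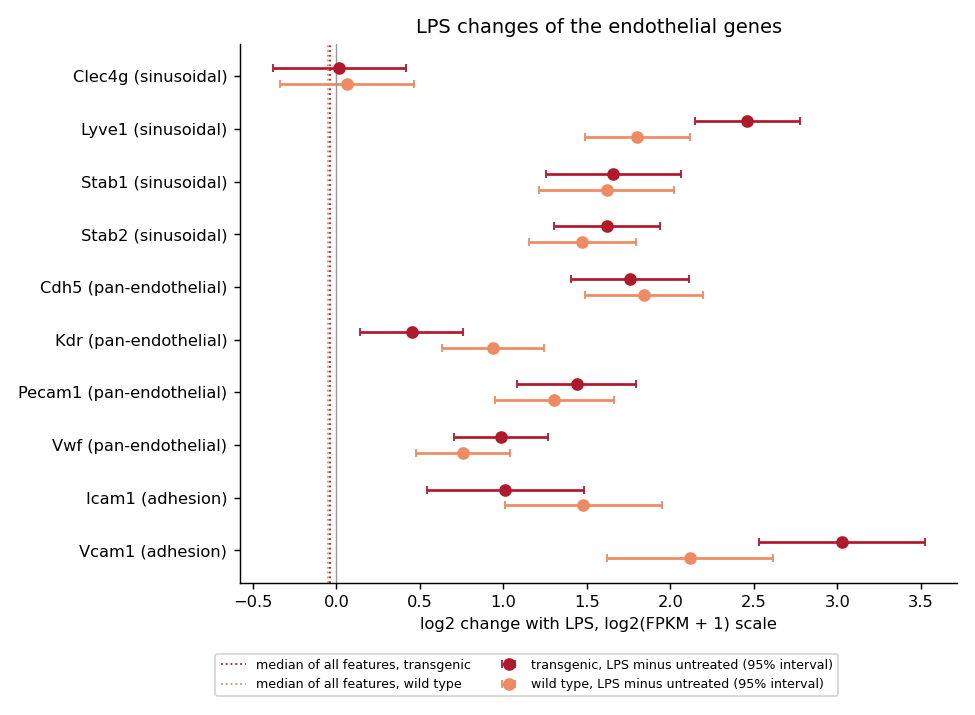
Log2 change with LPS on the log2(FPKM + 1) scale (horizontal axis) for each gene, in transgenic mice (dark) and wild-type mice (light), with 95% intervals from limma. Dotted lines mark the medians of all features tested; the intervals of Clec4g include 0 and those of the other 9 genes do not.

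The order of levels differed between LPS and untreated livers. With LPS, Lyve1 came first, at 91.8 ± 1.00 FPKM in transgenic and 76.4 ± 6.02 FPKM in wild-type mice (SD, n = 2), and Clec4g stood in the fourth place. Untreated, Clec4g came first, at 36.8 ± 1.60 FPKM in transgenic and 40.9 ± 8.22 FPKM in wild-type livers, and its libraries lay above all those of Lyve1, the next gene. In transgenic LPS livers the libraries of Vcam1 lay between those of Lyve1 and Stab2, and only Cdh5 and Stab1 overlapped as neighbours. In wild-type LPS livers the overlapping neighbours were Stab2 with Vcam1 and Vcam1 with Clec4g. In untreated livers of either genotype, Lyve1 and Stab2 held the next places, apart from their neighbours. Behind them Cdh5, Icam1, Kdr, Pecam1, Stab1 and Vcam1 each overlapped the next of these 6 in order, within group means of 5.65 to 9.28 FPKM.

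To ask whether a gene changed by more or less than Cdh5, the log2 value of Cdh5 was subtracted in each library before the same fit. The LPS change was then averaged over the genotypes. Because Cdh5 itself rose, 96.9% of all features passed, 95.4% as lower and 1.5% as higher, so a fall below Cdh5 is no result about these genes. Of the other 9 genes, 2 passed as higher and 5 as lower. Stab1 stayed nearest to Cdh5, at 1.05, 0.900, 0.835 and 0.812 times its FPKM in transgenic and wild-type LPS livers, against 1.06, 1.04, 1.01 and 0.917 times in untreated livers in the same order. Its relative change was -0.16 (95% interval -0.43 to 0.11, adjusted p = 0.219), and that of Stab2 was -0.25 (-0.54 to 0.04, adjusted p = 0.0809).

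Clec4g stood at 1.34 to 1.44 times the FPKM of Cdh5 in the 4 LPS libraries, against 4.84 to 5.67 times in the 4 untreated libraries. Its relative change was -1.76 (SE 0.12, adjusted p = 5.2e-07), close to the median of all features, -1.86. Kdr was at 0.350 to 0.445 times Cdh5 with LPS, against 0.720 to 1.21 times untreated (relative change -1.11, SE 0.13, adjusted p = 1.52e-05). Pecam1 and Icam1 rose by less than Cdh5, with relative changes of -0.43 and -0.55 (adjusted p = 0.00523 and 0.002). Against Cdh5, 95.4% of all features passed as lower. Vwf changed by -0.93 (adjusted p = 4.79e-05), and by -0.62 (adjusted p = 0.00618) with an added 0.1 FPKM.

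Vcam1 rose beyond Cdh5, in the averaged fit by 0.77 (SE 0.14, adjusted p = 0.000319). In transgenic mice it stood at 2.75 and 2.17 times Cdh5 with LPS, against 1.13 and 0.866 times untreated, a relative change of 1.27 (adjusted p = 0.000131), where 1.09% of all features passed as higher in transgenic mice and 1.41% in wild type. In wild-type mice the ratios were 1.48 and 1.45 with LPS, against 1.21 and 1.23 untreated, and the relative change of 0.28 did not pass (adjusted p = 0.192). Lyve1 passed narrowly in the averaged fit (0.33, SE 0.13, adjusted p = 0.0313). Its ratios in transgenic mice were 3.46 and 3.37 with LPS, against 2.00 and 2.40 untreated, a relative change of 0.70 (adjusted p = 0.00423). In wild type they were 2.61 and 2.53 with LPS, against 2.51 and 3.11 untreated, which overlap (-0.04, adjusted p = 0.832). For neither Vcam1 nor Lyve1 was the difference in relative change between the genotypes tested. The Lyve1 call ended with an added 0.1 FPKM (adjusted p = 0.0844). It also ended without any 1 of the 4 LPS libraries or of replicate 1 of either untreated group (adjusted p = 0.0514 to 0.138, with 5.36e-05 to 0.138 over all alternatives).

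**Figure D3:**
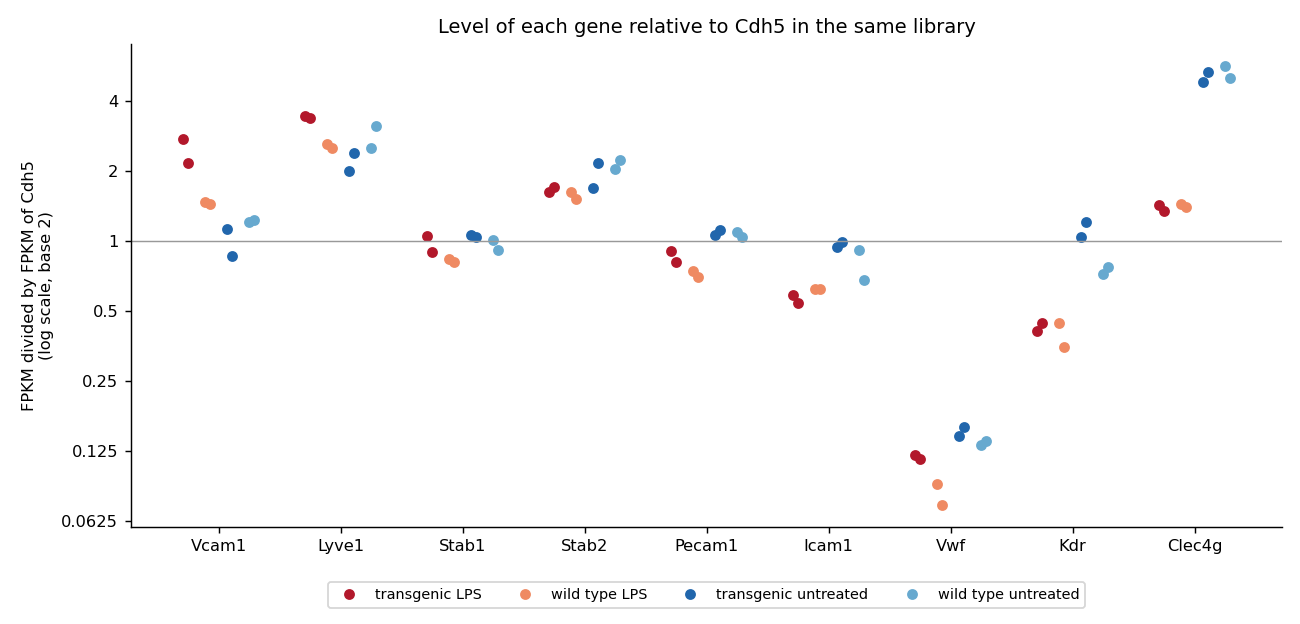
FPKM of each gene divided by the FPKM of Cdh5 in the same library (log axis, base 2), with transgenic LPS, wild-type LPS, transgenic untreated and wild-type untreated libraries from left to right for each gene. Points are libraries; Vcam1 is highest in the transgenic LPS libraries, Stab1 stays near 1, and Clec4g lies at 1.34 to 1.44 with LPS and 4.84 to 5.67 untreated.

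The transgenic and wild-type groups were compared within each treatment. No gene of the 10 passed in untreated mice or with LPS in limma (0 of 10 each, with 2 and 1 at an unadjusted p under 0.05). Of all features, 0.0611% passed untreated and 0% with LPS, with 631 and 1402 features at an unadjusted p under 0.05. In untreated livers, Kdr was higher in transgenic than in wild-type mice by 0.46 (95% interval 0.15 to 0.77, adjusted p = 0.604), and Lyve1 differed by -0.40 (-0.71 to -0.08, adjusted p = 0.752). The libraries of Kdr, Lyve1 and Stab2 did not overlap between the untreated genotypes, with Kdr higher and the other pair lower in transgenic mice. This held for 29.5% of all features, 15.4% as higher. With LPS the Vcam1 difference was 0.58 (0.09 to 1.08, adjusted p = 0.365). The group means of Vcam1 were then 66.2 ± 10.5 FPKM in transgenic and 43.6 ± 3.76 FPKM in wild-type mice (SD, n = 2). With LPS, 6 of the 10 genes did not overlap between genotypes, 3 higher and 3 lower in transgenic mice, against 52.1% of all features in either direction and 22% as higher.

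**Figure D4:**
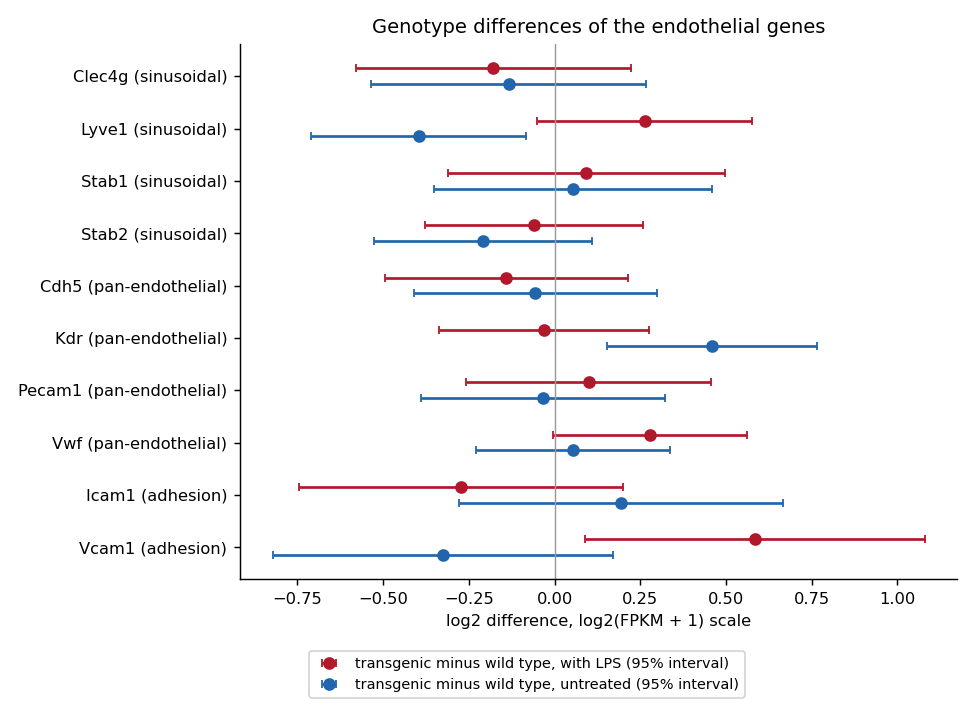
Transgenic minus wild-type difference on the log2(FPKM + 1) scale (horizontal axis) for each gene, with LPS (red) and untreated (blue), with 95% intervals from limma. No difference passed after adjustment; the largest is that of Vcam1 with LPS, 0.58.

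The interaction, which subtracts the wild-type from the transgenic LPS change, passed for none of the 10 genes (0 of 10, with 3 at an unadjusted p under 0.05). It passed for 0.00872% of all features, with 1189 at an unadjusted p under 0.05. Vcam1 had the highest value, 0.91 (95% interval 0.21 to 1.61, adjusted p = 0.433), then Lyve1 at 0.66 (0.21 to 1.10, adjusted p = 0.418). Kdr had the lowest, -0.49 (-0.92 to -0.06, adjusted p = 0.444), followed by Icam1 at -0.47 (-1.13 to 0.20, adjusted p = 0.595). The other 6 lay between -0.08 and 0.23, and an interaction as large as 0.42 or -0.59 is within the interval of Cdh5.

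Further genes of the vasculature were read from lists chosen with earlier results of these data known. Counts of these and the later lists stand against 16% of all features higher and 10.5% lower in transgenic mice. In wild type the shares were 16.2% and 5.41%. Of 12 other sinusoidal genes tested, 7 rose in transgenic and 9 in wild-type mice and none fell, with medians of 0.94 and 0.83. Clec1b, which encodes the podoplanin receptor CLEC-2, rose by 2.22 in transgenic and 2.04 in wild-type mice. Which cells of the liver its RNA came from was not tested. The sinusoidal gene Oit3 rose to 35.4 ± 2.60 FPKM with LPS in transgenic livers, against 11.4 ± 0.64 FPKM untreated (SD, n = 2), and to 35.9 ± 1.48 FPKM in wild-type livers, against 11.8 ± 0.82 FPKM. Wnt2 and Rspo3, signals of the pericentral endothelium to hepatocytes, had changes of -0.40 and -0.16 in transgenic and -0.43 and -0.10 in wild type, and did not pass. The transgenic count was 3 without untreated transgenic replicate 2 and 4 without transgenic LPS replicate 1. The wild-type count was 5 without untreated wild-type replicate 2, where 1 gene fell, 5 without wild-type LPS replicate 1 and 4 without wild-type LPS replicate 2.

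Of 21 other pan-endothelial genes, 14 rose in transgenic and 15 in wild-type mice and none fell, with medians of 0.88 and 1.00. With quantile normalization 1 fell in wild type. The transgenic count was 6 without untreated transgenic replicate 2 and 8 without transgenic LPS replicate 1. Clec14a, an endothelial C-type lectin, rose by 1.57 in transgenic and 2.06 in wild-type mice, and Icam2, a constitutive endothelial ligand of LFA-1, by 1.62 and 1.46. Tek and Tie1 encode the angiopoietin receptor TIE2 and its partner. Tie1 rose by 1.43 and 1.44, while Tek had 0.27 and 0.30 and did not pass. Of 9 genes listed for continuous vessels and their basement membrane, 7 rose in each genotype, with medians of 1.10 and 1.18. The 9 were Cd34, Plvap, Cldn5, Efnb2, Ephb4, Cd9, Col4a1, Col4a2 and Lama4. Whether each is particular to continuous vessels was not tested. The basement membrane collagens Col4a1 and Col4a2 rose by 2.14 and 1.76 in transgenic and by 2.06 and 1.98 in wild-type mice. Sele, which encodes E-selectin, did not pass the filter, at group means of 0.0991 and 0.0725 FPKM in transgenic and wild-type LPS livers, against 0.025 and 0.0202 FPKM untreated. With a filter of 5 FPKM, which tests fewer genes, 4 genes of the continuous-vessel list rose in each genotype.

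Of 15 genes of VEGF, angiopoietin, BMP and Notch signalling, 9 rose in each genotype and none fell, with medians of 0.71 and 0.55. Plxnd1, a semaphorin receptor of endothelium, rose by 1.35 in transgenic and 1.91 in wild-type mice, and the Notch ligand gene Dll4 by 1.17 and 1.33. Vegfa, the ligand of VEGFR2, had changes of -0.43 and -0.30 and did not pass. In transgenic mice 1 gene fell without either untreated wild-type library. Without untreated transgenic replicate 2 the transgenic count was 4, and with a filter of 5 FPKM it was 2 in each genotype.

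The integrins and selectin ligands through which leukocytes bind the adhesion molecules were read as a list. Of 9 tested, 8 rose in each genotype, with medians of 1.82 and 1.89, and 4 rose with a filter of 5 FPKM. Itga4, the alpha4 subunit that binds VCAM-1, was at 1.75 ± 0.21 FPKM in transgenic LPS livers, against 0.142 ± 0.00147 FPKM untreated, and at 1.83 ± 0.37 FPKM in wild-type LPS livers, against 0.221 ± 0.0228 FPKM untreated (SD, n = 2). Its change was 1.26 and 1.21. At such levels the added 1 FPKM shrinks the change, which holds for other listed genes of low level too. The ICAM-1 receptor subunits Itgb2 and Itgam rose by 3.51 and 3.29 in transgenic and by 3.85 and 3.01 in wild-type mice. Itgb1, the partner of alpha4 that most cells make, had 0.34 and 0.19 and did not pass. Of 14 NF-kB subunits and inhibitors, 3 rose and 1 fell in transgenic and 4 rose and 1 fell in wild-type mice, with medians of 0.37 and 0.15. These counts stand against 16% higher and 10.5% lower over all features in transgenic mice, and 16.2% higher and 5.41% lower in wild type, so they are near the background and are read as single genes. The inhibitor gene Tnfaip3 rose by 1.42 and 0.98, and the subunit gene Relb by 0.76 and 1.46. Nfkbia, which encodes the inhibitor IkB-alpha, rose by 0.95 in transgenic mice and was at -0.06 in wild type, where Nfkb1 (0.51) and Nfkbie (0.99) passed. Ikbkg, which encodes NEMO, the regulatory subunit of the IkB kinase complex, changed by -0.54 and -0.87. The transgenic rises numbered 1 without untreated transgenic replicate 2 or transgenic LPS replicate 1, and 6 without untreated wild-type replicate 2 or with FPKM rescaled to a common sum. The wild-type rises numbered 2 without untreated wild-type replicate 2, without either wild-type LPS library or with quantile normalization, and a filter of 5 FPKM left 1 rise in each genotype. The falls numbered 0 in transgenic mice with no filter, with each of the 3 other scalings and without any 1 of the 2 wild-type LPS libraries, the 2 untreated transgenic libraries or transgenic LPS replicate 1. In wild type they numbered 0 without wild-type LPS replicate 1. In each genotype they numbered 2 with a replicate block and without either untreated wild-type library.

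**Figure D5:**
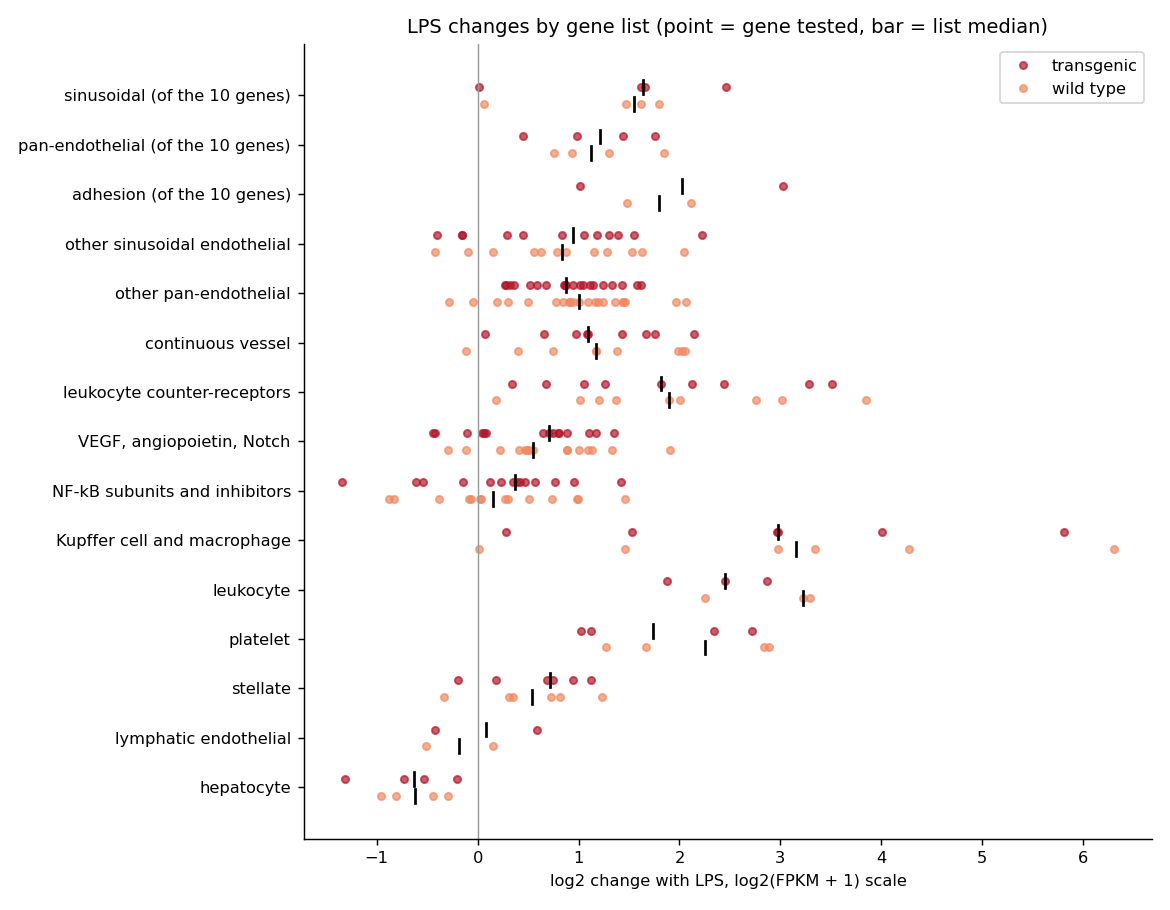
Log2 change with LPS on the log2(FPKM + 1) scale (horizontal axis) of every tested gene in each list, in transgenic mice (dark) and wild-type mice (light); points are genes and black bars are list medians. The macrophage and leukocyte lists have the highest medians, 2.97 and 2.45 in transgenic and 3.16 and 3.22 in wild-type mice, and the sinusoidal, pan-endothelial and continuous-vessel lists lie between 0.83 and 1.64.

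Genes of other cells that can share these transcripts moved with LPS too. Of 6 macrophage and Kupffer cell markers tested, 5 rose in each genotype, and all 6 were above 0. Marco, a macrophage scavenger receptor, rose by 5.81 and 6.30, and Emr1, which encodes the macrophage antigen F4/80, by 4.00 and 4.28. Their summed level was 661 to 717 FPKM in transgenic LPS livers, against 64.3 to 95.9 FPKM in untreated ones, and 725 to 782 FPKM in wild-type LPS livers, against 52.8 to 95.8 FPKM. Clec4f, the C-type lectin of Kupffer cells, was the marker that did not pass, at 0.28 in transgenic (adjusted p = 0.572) and 0.01 in wild-type mice (adjusted p = 0.982). Of the leukocyte markers, Laptm5 rose by 2.87 and 3.22 and Coro1a by 2.45 and 3.30. All 3 leukocyte markers rose in each genotype, to sums of 91.2 to 103 FPKM in transgenic LPS livers, against 10.7 to 16.1 FPKM untreated, and of 109 to 115 FPKM in wild-type LPS livers, against 7.82 to 13.8 FPKM.

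The 6 platelet markers summed to 23.4 to 24.3 FPKM in transgenic LPS livers, against 2.02 to 4.07 FPKM untreated, and to 25.1 to 33.3 FPKM in wild-type LPS livers, against 1.97 to 3.10 FPKM. All 4 that were tested rose, with Pf4 at 2.34 and 2.89 and Ppbp at 2.72 and 2.84, and 2 rose with a filter of 5 FPKM. Of 6 stellate markers, cells that can also display VCAM-1, 4 rose in transgenic and 3 in wild-type mice, among them Pdgfrb by 1.12 and 1.23 and Lrat by 0.75 and 0.82. Their sums were 48.3 to 56.1 FPKM in transgenic LPS livers, against 29.6 to 31.4 FPKM untreated, and 45.0 to 51.0 FPKM in wild-type LPS livers, against 30.7 to 38.2 FPKM. The stellate counts were 1 and 2 without untreated transgenic replicate 1 and replicate 2, and 1 without wild-type LPS replicate 1. Of 2 lymphatic markers tested, Mmrn1 rose in transgenic mice by 0.59 (adjusted p = 0.0404), and its call ended with an added 0.1 FPKM, with quantile normalization and without any 1 of the 4 transgenic or the 2 wild-type LPS libraries. Prox1, which hepatocytes also make, had -0.42 and -0.51. Of 4 hepatocyte genes tested, 1 passed as lower in each genotype, against 10.5% of all features in transgenic and 5.41% in wild-type mice. They are read as single genes. Ttr had -0.73 and -0.30 and Apoa1 -0.53 and -0.44 and did not pass. Serpina1c fell by 1.32 on the log2 scale in transgenic mice, and Hnf4a fell by 0.96 in wild type. The number that fell was 0 to 2 in either genotype without 1 library, 0 without transgenic untreated replicate 1 or 2 and without wild-type LPS replicate 1 or 2. The part that macrophages, leukocytes, platelets and stellate cells have in the rises of Stab1, Pecam1, Icam1, Vwf and Vcam1 was not tested. Nor was it tested for the further genes of the vasculature, Clec1b among them.

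For likeness of pattern, each gene's log2 values were centred on their mean over the 8 libraries, and the feature with the smallest root mean square difference was taken. The closest to Stab2 was Oit3, at 0.08, and the closest to Icam1 was Eng, the endothelial TGF-beta co-receptor endoglin, at 0.06. Clec4g was closest to Snrpb, a spliceosome gene, at 0.05. The others closest were Fyn to Stab1 (0.07), Kcna2 to Cdh5 (0.07), Lilra5 to Kdr (0.06), Sepn1 to Pecam1 (0.06) and Galc to Vwf (0.05). Lyve1 and Vcam1 had more distant neighbours, at 0.17 for the shared row of Serpinb6a and Serpinb6c and 0.25 for Ms4a6d. The split between LPS and untreated libraries dominates this measure, and no shared function is read from it.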

How the data were processed

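The authors deposited FPKM values, 1 column per library, and the submitters' processing notes name TopHat2 2.1.0, Bowtie2 2.2.6, Cufflinks, Cuffdiff 2.2.1 and build mm10. Which annotation, filters and between-library scaling were used is not given in the sources used here. RNA was taken from frozen, pulverized liver and made into libraries with a stranded Illumina mRNA kit, per the labels' protocols. Counts were not used, so depth is unknown and no counting interval is given.

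For repeated names the row with the highest sum was kept, and rows identical in all libraries were treated as 1 feature, which left 17294 features above 0. Values were transformed as log2(FPKM + 1), and 11463 features were tested in limma 3.58.1 under R 4.3.3, with 1 mean per group over 8 libraries, 4 residual degrees of freedom and trended moderation. Tests were 2-sided, with Benjamini-Hochberg adjusted p under 0.05 over all features. The procedure was tested on simulated data. The p-values rest on the spread between replicates, which the authors call biological, pooled over the 4 groups and moderated over all features. They do not measure the spread of only the groups compared. Over the features tested, the SD of the log2 difference between replicates was 0.47 in transgenic and 0.23 in wild-type LPS livers. In untreated livers it was 0.31 in transgenic and 0.48 in wild type. Gene positions are from GENCODE vM21 on GRCm38, the assembly of mm10.

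The genes, lists and tests were chosen with earlier results of these data known. Named with values were the 10 genes and 2 features per list. These 2 had the largest mean change among those that passed in both LPS contrasts, or were the most abundant. The tested continuous-vessel genes are all listed. Other list genes named, such as Tek, Tie1, Vegfa, Itgb1, Itga4, Wnt2, Rspo3, Sele, Clec4f, Nfkbia, Nfkb1, Nfkbie, Ikbkg, Serpina1c and Hnf4a, were picked after their values were seen. Rows shared with another protein-coding gene (Fcgr2b, Selp, Ackr1, Cd68) were left out of the lists, and Nrp1, whose row also carries a microRNA name, was kept. Alternatives were an added 0.1 FPKM, other filters, other scalings, moderation without a trend, only the groups compared, a replicate block, other denominators than Cdh5, and each library left out.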

Additional observations from a re-analysis of the deposited data

How the results depend on the processing

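For the 9 genes that rose, the direction held in all 304 refits of the LPS changes, and the call in 294, the exceptions being those given above for Kdr, Icam1 and Vwf. The number of the 10 genes called was 7 to 9 in transgenic and 8 to 9 in wild-type mice over all refits. No genotype or interaction result of the 10 passed in any of 497 refits. FPKM rescaled to a common sum put the median of all features at 0.16 in transgenic and 0.18 in wild-type mice, in place of -0.04 and -0.05, and Clec4g at 0.23 and 0.32, which did not pass (adjusted p = 0.346 and 0.232). The changes of Kdr in transgenic and Vwf in wild-type mice were then 0.68 and 1.16.

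Over all features, LPS called 3034 in transgenic and 2481 in wild-type mice. With a filter of 5 FPKM, which tests fewer features, it called 1835 and 1379, and without 1 library 1238 to 3629 and 1244 to 3438. Without 1 library, untreated genotype calls numbered 2 to 44, genotype calls with LPS 0 to 425 and interaction calls 0 to 279. Only the groups compared gave 22 for the untreated genotype difference, against 7.

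Relative change depends on the denominator. Against Kdr it was 0.95 for Stab1, 0.85 for Stab2, 0.68 for Pecam1, 0.18 for Vwf and 0.55 for Icam1, all positive where they were negative against Cdh5, because Kdr rose less than Cdh5. Clec4g was then at -0.65, Lyve1 at 1.44 and Vcam1 at 1.88, each with the sign it had against Cdh5. Against Pecam1, Stab1 was at 0.27 and Stab2 at 0.18, and Icam1 at -0.13 did not pass (adjusted p = 0.293). Stab2 passed with an added 0.1 FPKM (-0.31, adjusted p = 0.0462).

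The replicate numbers are shared by the groups. Deviations of same-numbered libraries correlated at 0.04 to 0.46 over the 6 pairs of groups, all positive but not all over 0.1. The value of 0.46 was that of untreated wild type with untreated transgenic. The numbers were not read as pairs in the main fit, and a replicate block was run as an alternative. With a replicate block 9 of the 10 genes were called in each LPS comparison and 0 in the genotype and interaction comparisons. Over all features it called 3314 in transgenic and 2769 in wild-type mice.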
